A study of Drosophila melanogaster with 3 samples.

Results

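The genes described are 9 core genes of programmed cell death in Drosophila melanogaster, chosen by name from the dm6 gene models. They are the death-inducing genes rpr, hid, grim and skl, the inhibitor gene Diap1, the caspase genes Dronc, Drice and Dcp-1, and the caspase activator gene Dark. They are 9 of the 13945 annotated protein-coding genes. For each gene, peaks of the transcription factor Lola-RI were taken when the summit, the peak's highest point, lay in the gene or within 10 kb of either end. These windows held 33 of the 9202 peaks in the authors' reproducible list, kept by a threshold on the irreproducible discovery rate (IDR). These 9202 were the top-scoring of 30000 pooled peaks, and each replicate had its own list of 30000. Chromatin immunoprecipitation with sequencing (ChIP-seq) was run on 3 biological replicates of 1 group, with no second condition. All were whole wandering larvae of the third instar and of both sexes, from the transgenic strain lola-RI-GFP, in which Lola-RI with eGFP at its C terminus was stably expressed. Neither the promoter of the transgene nor the presence of untagged Lola is given in the sources used here. The sample descriptions give an anti-GFP antibody, whereas the antibody entry is lola. Whole larvae mix many tissues, so a peak cannot be assigned to a cell type from these lists, and peak lists hold no markers with which the stage or tissue could be checked.

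In flies, cell death is held back by Diap1, a ubiquitin ligase that binds caspases and keeps them inactive. The proteins Rpr, Hid, Grim and Skl share a short N-terminal motif with which they bind Diap1 and release the caspases. Dronc is the initiator caspase and is activated on a platform of the adaptor Dark, the fly counterpart of Apaf-1, and it then cleaves the effector caspases Drice and Dcp-1. At the end of larval life the steroid hormone ecdysone starts the destruction of larval tissues, and rpr and hid are among the death genes induced in tissues such as the salivary gland. Lola proteins are a large family of BTB zinc finger isoforms made from 1 gene, best known for axon guidance, and Lola has also been described as needed for nurse cell death in the fly ovary.

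The sequence at the summits on which the results turn is given first, from the dm6 reference genome with 50 bp on either side of the summit and read 5′ to 3′ on the strand of the named gene. They are the hid promoter site, the highest-scoring upstream sites in the windows of hid and rpr, the highest-scoring site inside Diap1 and Dronc, and the promoter site of Drice. Capitals mark TATAAA or its reverse complement TTTATA.
hid promoter, chr3L:18185912-18186012, minus strand: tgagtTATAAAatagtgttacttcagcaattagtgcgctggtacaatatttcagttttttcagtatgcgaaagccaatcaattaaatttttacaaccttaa
hid upstream, chr3L:18192979-18193079, minus strand: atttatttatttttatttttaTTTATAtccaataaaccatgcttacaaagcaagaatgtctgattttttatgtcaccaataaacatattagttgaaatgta
rpr upstream, chr3L:18402628-18402728, minus strand: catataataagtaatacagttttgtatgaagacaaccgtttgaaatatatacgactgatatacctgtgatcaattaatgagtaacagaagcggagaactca
Diap1 intron, chr3L:16046134-16046234, minus strand: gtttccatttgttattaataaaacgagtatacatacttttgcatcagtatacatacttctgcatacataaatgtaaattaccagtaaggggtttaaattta
Dronc intron, chr3L:9969726-9969826, plus strand: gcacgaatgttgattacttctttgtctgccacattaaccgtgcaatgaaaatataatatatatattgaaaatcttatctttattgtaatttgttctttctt
Drice promoter, chr3R:29799477-29799577, plus strand: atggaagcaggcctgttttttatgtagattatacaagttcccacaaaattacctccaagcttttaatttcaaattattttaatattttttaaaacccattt
The 6 windows were rich in A and T, with G and C making up 29.7% of the hid promoter window, 20.8% of the hid upstream window, 31.7% of the rpr window and 26.7% of each of the others. Both hid windows held a TATAAA match in one orientation or the other, and the other 4 held none.

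A promoter summit was one at most 500 bp from a transcription start site (TSS) of the gene. By this measure hid, Diap1, Drice, Dark and Dcp-1 had an IDR promoter summit and rpr, grim, skl and Dronc had none. The 5 of 9 genes compare with 34.0% of all protein-coding genes. In the 3 replicates, each shortened to its 9202 highest-scoring peaks to match the IDR list, the count was 6 of 9 in replicate 1 (33.7% of all genes), 4 of 9 in replicate 2 (32.5%) and 6 of 9 in replicate 3 (36.2%). Dronc and Drice made the difference, since both had a promoter summit in replicates 1 and 3 and neither had one in shortened list 2. In all 3 shortened lists hid, Diap1, Dark and Dcp-1 had one, 4 of 9 genes against 27.3% of all genes. Among all 30000 pooled peaks Dronc joined, which made 6 of 9 against 48.1%. No test was made on these counts.

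Windows of a gene plus 10 kb are long enough that most genes hold a summit. An IDR summit lay in 7 of the 9 windows, which is close to the 76.3% of all protein-coding genes. The exceptions were grim and skl. Their windows held no pooled summit, as did those of 15.6% of protein-coding genes, and none in the full list of any replicate. The other 7 windows held 2 IDR summits at Dronc, 3 at rpr and at Drice, 4 at Dcp-1, 5 at Dark, 7 at hid and 9 at Diap1, where the median gene held 2. Both hid and Diap1 therefore had 6 or more, as did 13.9% of all genes, and 3.51% of genes had at least 9. Window length differs, from 20.9 kb at rpr to 37.9 kb at hid. Per 10 kb the highest density was 2.76 at Diap1, followed by 1.87 at Dark, 1.85 at hid, 1.8 at Dcp-1, 1.44 at rpr, 1.37 at Drice and 0.888 at Dronc. Over all 9 windows it was 145 per Mb, against 68.7 per Mb over the chromosomes analysed. The latter includes DNA away from genes, and the difference was not tested.

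**Figure D1:**
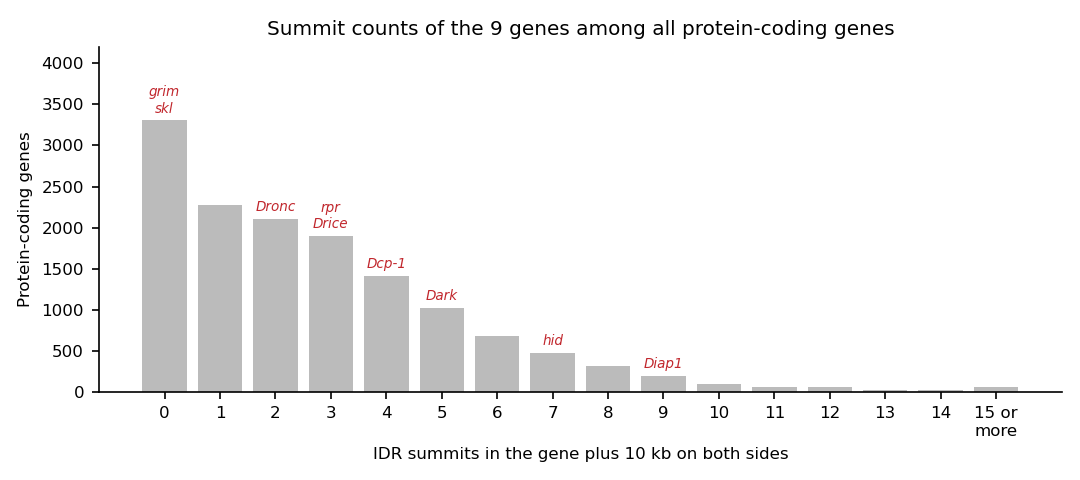
Number of protein-coding genes (vertical axis) by the number of IDR summits in the gene plus 10 kb on both sides (horizontal axis), with the 9 cell death genes written above the bar of their count. Both grim and skl stand at 0, and Diap1, with 9, stands farthest to the right.

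The 33 summits fell into 29 separate regions when overlapping peaks were joined. Of the 33, 6 lay at a promoter of a cell death gene, 10 at the promoter of a neighbouring gene and 17 farther than 500 bp from every TSS, here called distal. The share near any TSS was 48.5%, against 55.5% of all IDR summits. The 17 distal summits lay in introns (6) or between genes (11), none lay in an exon, and 8 of the 17 had a cell death gene as their nearest TSS. A distal summit lay in the windows of rpr, hid, Diap1, Dronc and Dark, 5 of 9 genes against 41.3% of all genes. Inside the gene itself a distal summit was present at Diap1 and Dronc, 2 of 9 against 9.32%.

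Scores are the authors' own and are used here only as ranks within a list, with 1 the highest. The 33 summits ranked from 861 to 9179 in the pooled list with a median of 4158, and 19 of them (57.6%) lay above the median rank of the IDR list. The shortened lists held 31, 32 and 35 summits in the 9 windows (32.7 ± 2.08, SD, n = 3). Of the 33 IDR peaks, 25 (75.8%) overlapped a peak of all 3 shortened lists, as did 74.7% of all IDR peaks. A further 4 were found in 2 shortened lists and 4 in 1. All 33 were found in every full list, as were most of the 9202 IDR peaks, namely 4910 near a TSS and 3938 distal. Overlap by 1 bp was enough, so the peak of a neighbouring summit could count. When a replicate summit had to lie within 100 bp, the count for all 3 replicates was 18 and not 25. The share of all IDR peaks under that rule is not given here. The median distance from an IDR summit to the nearest replicate summit in an overlapping peak was 17 bp.

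**Figure D2:**
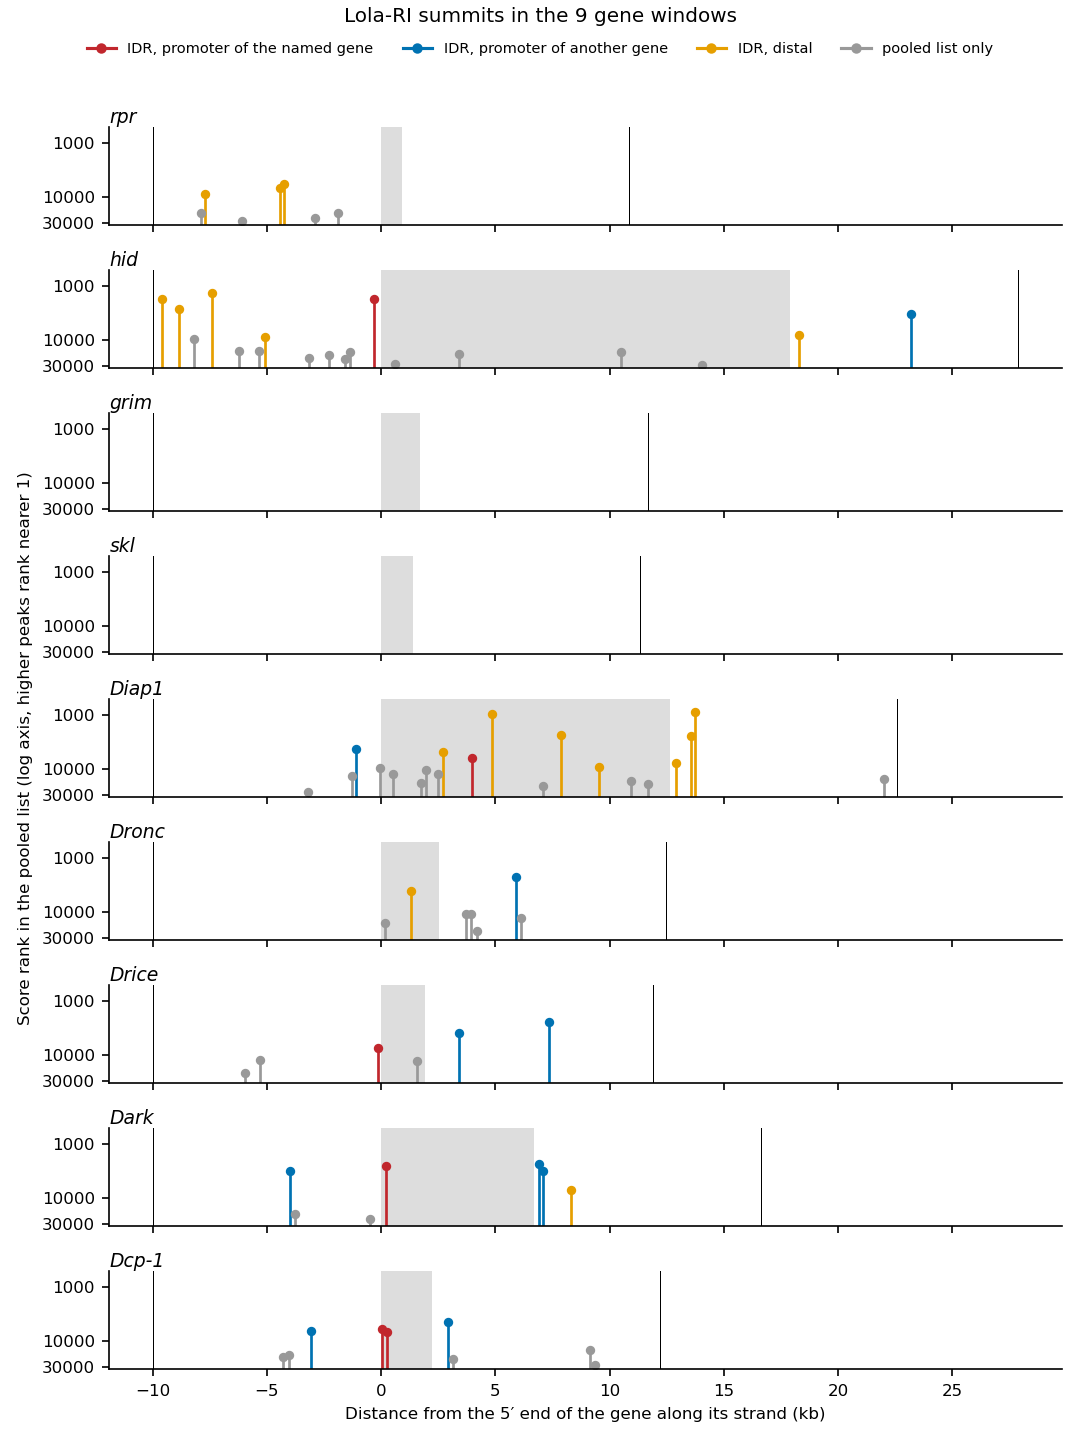
Summits in the window of each gene, with distance from the 5′ end of the gene along its strand in kb on the horizontal axis and score rank in the pooled list on a log axis, where taller lines are higher-scoring peaks. Grey shading is the gene, thin black lines are the ends of the window, and colours give the class of the 33 IDR summits, with the 41 summits found only in the pooled list in grey. The windows of grim and skl are empty.

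Of the 4 death-inducing genes, hid was the one with a promoter summit. The gene lies on 3L from 18167745 to 18185641, on the minus strand, with 1 TSS. Its promoter peak, from 18185755 to 18186185, had its summit 321 bp upstream of the TSS and ranked 1767 in the pooled list. The replicates placed the summit at -304, -291 and -321 bp and gave it ranks 1373, 1678 and 2575. Each was better than the median rank of bound promoters in the shortened lists, which was 3750, 4027 and 4076 in replicates 1, 2 and 3. It was the highest-scoring promoter summit of the 9 genes in the pooled list. At 321 bp from the TSS it would not count as a promoter summit under the narrower width of 250 bp. The protein-coding genes whose promoter ranks in the 3 replicates were closest to those of hid, among 5824 genes compared, were hng3, CG13887 and CG13901. The summed absolute difference in log2 rank was 0.18 for hng3, with ranks 1355, 1521 and 2544. For CG13887 and CG13901 it was 0.2, and both had ranks 1376, 1730 and 2322, which are those of the same summits, shared by both genes.

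Upstream of hid lay 4 further IDR summits within the window, all between genes. The highest-scoring, 7388 bp upstream of the TSS in a peak from 18192772 to 18193274, ranked 1365 in the pooled list and 1123, 999 and 2308 in the replicates. Its rank was thus better than that of the hid promoter in each replicate. The summit 9575 bp upstream (18194955 to 18195516) ranked 1741, with 1514, 1219 and 2907 in the replicates. Between them, 8858 bp upstream, a peak from 18194323 to 18194771 ranked 2639, with 2086, 2481 and 3865. The TSS nearest to these 3 summits was that of the noncoding RNA gene lncRNA:CR45234, at 3143, 956 and 1673 bp. The summit 5063 bp upstream was much lower, at rank 8649, and lay in the shortened list of replicate 2 alone, with ranks 9441, 6691 and 12416 in the full lists. All 5 of these peaks, the promoter included, ranked lowest in replicate 3.

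Past the 3′ end of hid were a low peak at rank 8063, which ranked 9695, 10308 and 6509 in the replicates, and the promoter peak of CG13699 at rank 3267. The latter had its summit 65 bp downstream of the CG13699 TSS, in the 5′ UTR, and ranked 4887, 4637 and 2310. On this side replicate 3 ranked both peaks highest, the opposite of the upstream side. No IDR summit lay inside hid, where the pooled list had 4 low ones at ranks from 16830 to 29629. At the edge of the window, the last summit inside was the one 9575 bp upstream of the TSS, and the next, 10.61 kb upstream, was present in the pooled list only at rank 21880.

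The gene rpr, on 3L from 18397535 to 18398435 on the minus strand, had 3 IDR summits, all between genes on its upstream side. The highest-scoring, 4243 bp upstream in a peak from 18402298 to 18402809, ranked 5772 in the pooled list and 5232, 5157 and 8437 in the replicates. An adjoining peak with its summit 4444 bp upstream ranked 6837 in the pooled list. Its replicate ranks were 10423, 14101 and 12818, each lower than its pooled rank. The third, 7691 bp upstream, ranked 8988, near the end of the IDR list, with 7896, 8484 and 12828 in the replicates. Each shortened replicate list held 2 summits in the rpr window. In replicate 3 the best rank in the window was 6568, at a summit other than those matched to the IDR summits above. At the rpr TSS the pooled list had none within 500 bp, and the replicate lists had 1, in replicate 3, at -213 bp and rank 14511. No other protein-coding gene overlapped the rpr window.

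The 4 death-inducing genes lie in 1 region of 3L and on the same strand, in the order hid, grim, rpr and skl from 18167745 to 18439942. Regulatory DNA of these genes has been mapped in earlier fly studies between the genes as well as next to them, including a region upstream of rpr that responds to irradiation. Its position was not compared with the summits here. The whole stretch of 272.2 kb held 18 IDR summits, 66.1 per Mb, against 68.7 per Mb over the 133.9 Mb of the chromosomes analysed. The shortened replicate lists held 18, 21 and 13 (17.3 ± 4.04, SD, n = 3). The count was 10 without replicate 1, 11 without replicate 2 and 15 without replicate 3, when an IDR peak had to be found in both of the other shortened lists.

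These summits were spread unevenly. Of the 18, 15 lay in the 117.1 kb between hid and grim, which is 128 per Mb, with 16, 19 and 11 in the shortened replicate lists. All 15 were nearer to hid than to grim, and the farthest lay 55.69 kb upstream of the hid TSS. The highest-scoring summit of the stretch was not in any of the windows. It lay 50.97 kb upstream of hid, in a peak from 18235827 to 18236816, and ranked 1273 in the pooled list and 965, 959 and 2292 in the replicates. The next beyond the hid window was at 54.04 kb, with pooled rank 1870 and replicate ranks 2826, 1858 and 1516. Replicate 3 thus ranked the first of these lowest and the second highest.

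Between grim and rpr, over 93.12 kb, neither the IDR list nor the pooled list held a summit. The gene grim, from 18302719 to 18304417, lay in a stretch of 124 kb without a pooled summit, from 18276059 to 18400332. The gaps around grim in the 3 replicates were of like length, at 124, 128 and 123 kb. By length the pooled gap was number 54 of 29994 such gaps between neighbouring summits. Inside it lay 4 protein-coding genes, among them grim itself and rpr. The nearest pooled summit was 28.4 kb from the grim TSS. Between rpr and skl, over 40.12 kb, were the 3 IDR summits near rpr described above among 9 pooled summits. The gene skl, from 18438561 to 18439942, stood in a gap of 35.1 kb, with pooled summits 14.5 and 20.6 kb to either side of its TSS. The replicate gaps were 35.2, 35.0 and 37.4 kb.

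**Figure D3:**
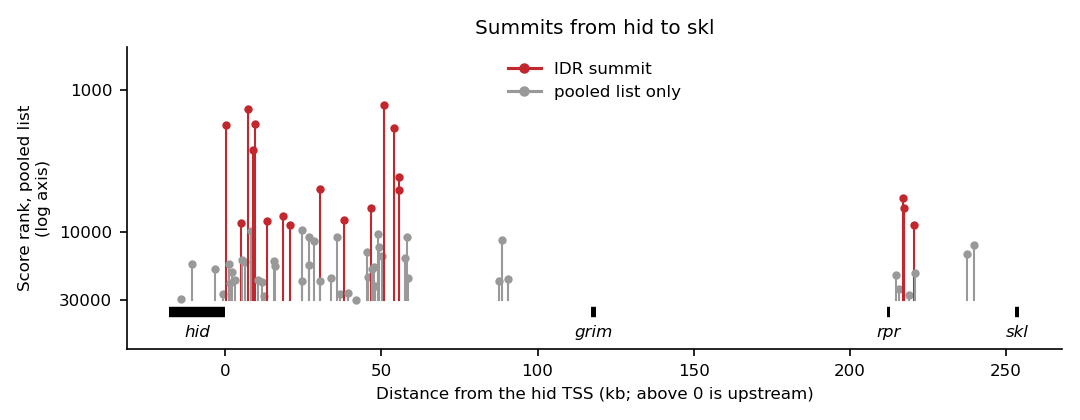
Summits along the stretch from hid to skl, with distance from the hid TSS in kb on the horizontal axis (values above 0 are upstream) and score rank in the pooled list on a log axis. Black bars are the 4 genes, red marks the 18 IDR summits and grey the pooled summits outside the IDR list. Of the 18 IDR summits, 15 lie within 55.69 kb of the hid TSS, and no summit lies between grim and rpr.

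Diap1, the gene of the caspase inhibitor, lies on 3L from 16038410 to 16051034 on the minus strand and has 5 annotated TSSs. Its window held the most IDR summits of the 9 genes. The shortened replicate lists held 9, 11 and 9 (9.67 ± 1.15, SD, n = 3). Of the 9 IDR summits, 5 lay inside the gene, all in introns, 1 of them within 500 bp of an internal TSS. A further 3 lay past the 3′ end, and 1 at the promoter of the neighbouring gene Mbs, which encodes a myosin phosphatase subunit.

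The highest-scoring site inside Diap1 was an intronic peak of 1156 bp from 16045336 to 16046491, with its summit 662 bp downstream of an internal TSS. It ranked 972 in the pooled list and 794, 716 and 1536 in the replicates. A second intronic peak, from 16042866 to 16043411 and 602 bp upstream of another internal TSS, ranked 2339, with 2237, 1485 and 4520. Both fell just outside the 500 bp that defined a promoter here, and both ranked lowest in replicate 3. With promoters of 1000 bp both would count as promoter sites. So would the intronic summit at rank 9179, which lay 967 bp upstream of a Diap1 TSS. Intronic summits at ranks 4746 and 9179 had replicate ranks of 4784, 4593 and 6030, and of 8698, 9658 and 9684. Their nearest TSSs were those of the noncoding genes lncRNA:CR43951, 900 bp away, and asRNA:CR45889, 893 bp away.

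The promoter summit of Diap1 that counted in the IDR list lay 203 bp upstream of an internal TSS, in a peak from 16046684 to 16047238 at rank 6181. The nearest replicate summits ranked 5181, 5176 and 10571. At the TSS at the 5′ end of the gene, the summit lay 43 bp upstream and ranked 9482 in the pooled list, just past the last IDR rank. Its replicate ranks were 10826, 10575 and 6443, so it stood within the first 9202 in replicate 3 alone. The best Diap1 promoter rank over its 5 TSSs was 5181, 5176 and 6443 in replicates 1, 2 and 3.

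Past the 3′ end of Diap1, a peak of 726 bp from 16037010 to 16037735 held 2 summits in the lists. The one at 16037283 ranked 861 in the pooled list, the best of all 33, and 987, 901 and 789 in the replicates. The ranks of the 3 replicates lay close together. Its nearest TSS, at 1605 bp, was that of CG5895 and not of Diap1. The second summit of the peak ranked 2407, with 3212 and 2734 in replicates 1 and 2, while replicate 3 had a single overlapping summit for both. A smaller peak nearer the gene end, from 16037902 to 16038277, ranked 7803 in the pooled list and 10379, 6429 and 8249 in the replicates. At Mbs the summit lay 159 bp downstream of the TSS and ranked 4335, with 6054, 2858 and 4931.

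Dronc, the initiator caspase gene, on 3L from 9968479 to 9971002 on the plus strand, had 2 IDR summits in its window. One lay in an intron, 1297 bp downstream of the TSS in a peak from 9969620 to 9969985. It ranked 4158 in the pooled list and 4103, 6822 and 3017 in the replicates, within the first 9202 of each. The other was at the promoter of dpr6, the gene of an immunoglobulin-domain cell surface protein, with its summit 269 bp upstream of that TSS. It ranked 2233, with 3361, 1860 and 2115. At the Dronc TSS itself the lists differed. The pooled list placed a summit 163 bp downstream at rank 16249, while replicate 1 had one at -8 bp and rank 6607, replicate 3 one at -43 bp and rank 3834, and replicate 2 one at 204 bp and rank 14577. The promoter of Dronc was thus inside the first 9202 peaks in 2 of the 3 replicates and outside the IDR list. A TSS of a neighbouring gene also lay within 500 bp of the pooled summit.

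The effector caspase gene Drice, on 3R from 29799658 to 29801584 on the plus strand, had a promoter summit 131 bp upstream of its TSS in a peak from 29799295 to 29799758. It ranked 7559 in the pooled list, the lowest of the bound promoters among the 9 genes, and 6555, 10689 and 8740 in the replicates. In replicate 2 it was therefore below the first 9202. A TSS of a neighbouring gene also lay within 500 bp of this summit, so it cannot be assigned to Drice alone. The other 2 summits of the window scored higher and lay at promoters of other genes. At Etfb, the gene of an electron transfer flavoprotein subunit, the summit 107 bp upstream of the TSS ranked 3879, with 3540, 4635 and 3860. At ncd, the gene of a kinesin motor, the summit 135 bp downstream of the TSS ranked 2432, with 2808, 3437 and 2084. Both of these summits also lay within 500 bp of a TSS of a further gene.

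Dark, the activator of Dronc, on 2R from 17020027 to 17026703 on the plus strand, had a promoter summit 225 bp downstream of its TSS, in an intron, in a peak from 17019957 to 17020496. It ranked 2530 in the pooled list and 2798, 3537 and 2059 in the replicates. Each was better than the median of bound promoters in its replicate given above. The window also held summits at promoters on both sides. Near Ehbp1, an endocytic adaptor gene, the summit 131 bp upstream of the TSS ranked 3137, with 3757, 3663 and 2846. Past the 3′ end of Dark, a peak from 17026708 to 17027275 held a summit 76 bp downstream of the TSS of asRNA:CR44390 at rank 2314. The nearest replicate summits ranked 2079, 2089 and 3029. This pooled summit also lay within 500 bp of a TSS of a further gene.

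Dcp-1, the second effector caspase gene, on 2R from 23551313 to 23553547 on the plus strand, shares its promoter region with pita, the gene of a zinc finger protein. There were 2 IDR summits there, in overlapping peaks. The first, 36 bp downstream of the Dcp-1 TSS, ranked 5981 in the pooled list, and the second, 247 bp downstream, ranked 6810 and lay 9 bp from a TSS of pita. The best promoter rank in the replicates was 6127, 4506 and 6806, at 5, 170 and 222 bp downstream of the Dcp-1 TSS. Replicates 2 and 3 gave the same nearest summit for both IDR summits. Another summit, 481 bp from a TSS of pita, ranked 4394, with 5240, 4816 and 3746. The fourth lay 18 bp from the TSS of levy, a cytochrome c oxidase subunit gene, at rank 6522, with 5356, 8152 and 9112. It also lay within 500 bp of a TSS of a further gene. All 4 summits of this window were thus near a TSS, and it held no distal one.

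Ordered by best promoter rank in the pooled list, the 5 bound genes were hid (1767), Dark (2530), Dcp-1 (5981), Diap1 (6181) and Drice (7559). The replicates separated hid and Dark, whose promoter ranks lay between 1373 and 3537, from the other 3, whose ranks lay between 4506 and 10689. Within these groups the order was not stable. By best promoter rank, Dark stood above hid in replicate 3, and Dcp-1 above Diap1 in replicate 2 alone. For Diap1 the best rank in replicate 3, 6443, was at the TSS at the 5′ end of the gene. The replicate 3 summit nearest to the pooled Diap1 promoter summit ranked 10571, below Dcp-1 and Drice in that replicate. The rank of Drice in replicate 1, 6555, lay inside the range of Dcp-1.

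**Figure D4:**
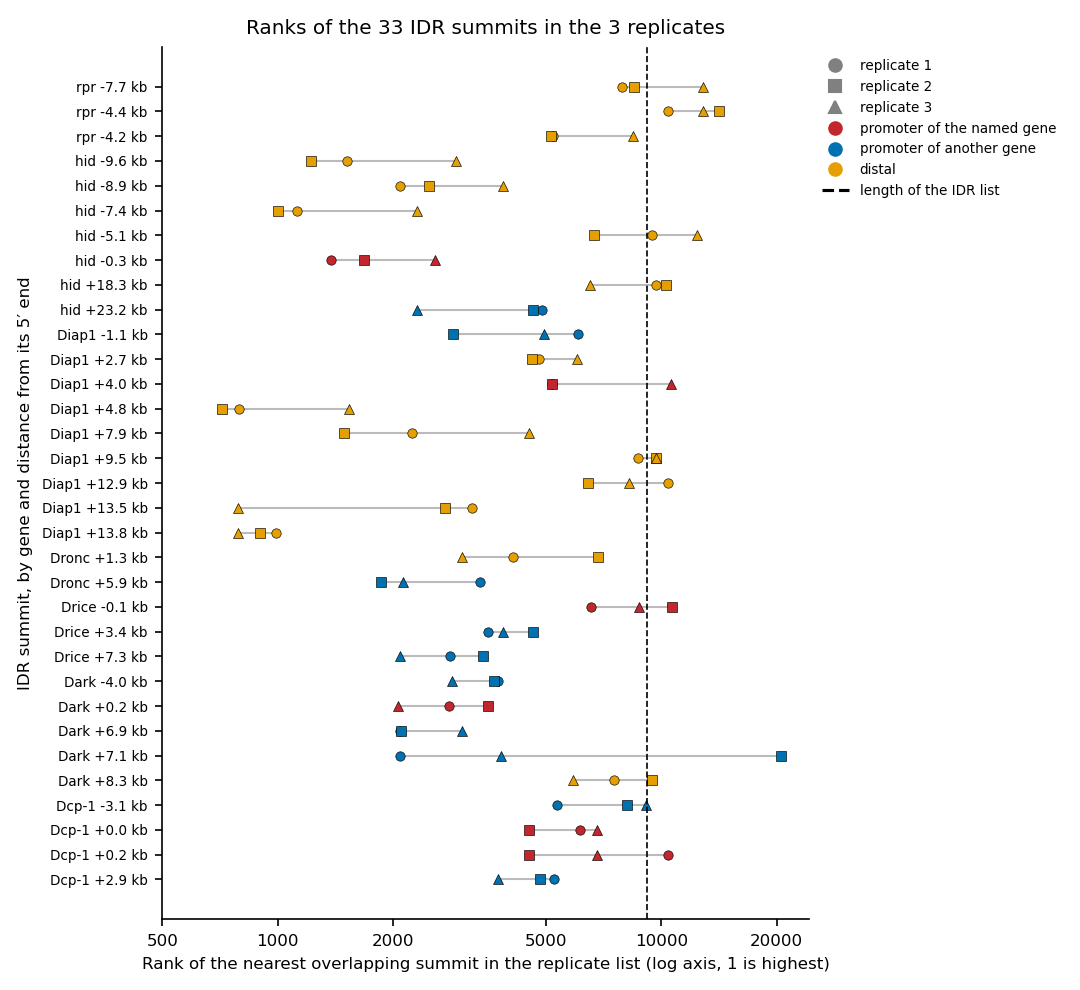
Rank of the nearest overlapping summit in the full list of each replicate (log axis, 1 is highest) for the 33 IDR summits, which are named by gene and by distance from its 5′ end in kb. Circles, squares and triangles are replicates 1, 2 and 3, colours give the class of the site, grey lines span the replicates and the dashed line is the length of the IDR list. Upstream of hid and inside Diap1 the triangles lie mostly to the right, while at most promoters of neighbouring genes they do not.

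Sites were also sorted by the replicate that ranked them lowest or highest. Of the 17 distal sites, 10 (58.8%) had their lowest rank in replicate 3, as had 44.3% of the 3938 distal IDR sites of the genome that overlapped a peak in every full replicate list. In the hid window it was 4 of 5 distal sites. The highest rank of a distal site fell most often in replicate 2 at these genes (8 of 17, 47.1%) and least often in replicate 2 over the genome (30.8%). Of the 16 sites near any TSS, 5 (31.2%) had their lowest rank in replicate 3, against 27.3% of the 4910 IDR sites near a TSS that overlapped a peak in every full list. Their highest rank fell in replicate 3 at 5 of 16 (31.2%), against 45.9% over the genome. These differences between replicates were not tested.

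Short sequence motifs were counted on both strands of the windows, 50 bp to either side, at the 33 summits. TATAAA, whose reverse complement is TTTATA, was present in 8 windows (24.2%), against 16.9% of all IDR windows and 12.3% of windows centred 500 bp to either side. Of the 8, 3 were at hid, 2 at Diap1 and 1 each in the windows of rpr, Drice and Dark. GAGAG was present in 3 windows (9.09%), against 16.5% of all IDR windows and 13.2% of flanking windows. The DNA replication-related element TATCGATA was present in 1 window, near levy, and in 1.52% of all IDR windows. None of the 33 windows held the E-box CACGTG, which 1.06% of all IDR windows held. The nuclear receptor half-site AGGTCA, present in 1.75% of all IDR windows, was also in none of them. The AP-1 motif TGAGTCA, present in 0.978%, was in none of them either. A match or its absence describes only the letters in these windows. Mean G and C content was 36.9% at the 33 summits, 38.6% at all IDR summits and 42.6% in flanking windows.

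The wider cell death pathway was described with 40 other genes in 7 groups. Of these, 23 (57.5%) had an IDR promoter summit, against 34.0% of all protein-coding genes, and in the shortened replicate lists the counts were 23, 21 and 21. In all 3 of those lists it was 15 of 40 (37.5%), against the 27.3% of all genes. The median promoter rank of the 23 was 5161, lower than the 3845 of all bound protein-coding genes. The group counts below stand beside the same 34.0% of all genes. In all 3 shortened lists the first groups described had 3 of 4, 1 of 3, 2 of 4 and 1 of 5 genes bound. The last had 2 of 5, 4 of 9 and 2 of 10, in the order given below. No test was made on these shares.

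Of 4 other caspase genes, Strica, Decay and Dredd were bound. Strica, a long-prodomain caspase, ranked 1333 in the pooled list, with 1503, 1803 and 1136 in the replicates, above hid in the pooled list and in replicate 3. Decay, an effector-type caspase, ranked 2580, with 2777, 6496 and 1779. Dredd, the caspase of the Imd immune pathway, had a summit nearer to the TSS of another gene. Of 3 other inhibitors of apoptosis, Det, the survivin counterpart, was bound at rank 6082, with its summit nearer to a neighbouring TSS, and Diap2 and Bruce were not bound. Among 4 mitochondrial and IAP-binding proteins, the cytochrome c genes Cyt-c-p and Cyt-c-d ranked 2328 and 2392, and Prx4 was also bound. For Cyt-c-p the replicate ranks were 2169, 2841 and 2141, and for Cyt-c-d they were 2191, 1889 and 3237, with the summit nearer to another gene's TSS.

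Of 5 Bcl-2 family and p53 genes, Debcl ranked 2387, with 2513, 2716 and 2116 in the replicates, and Corp, a p53 regulator, ranked 7571, with 6791, 7688 and 9753. The other 3, Buffy, p53 and lok, had a promoter summit in the pooled list but not in the IDR list. Caspase regulators were bound at 4 of 5 genes, namely eIF3m at rank 5535, Ubr3 at 6305, dnr1 and morgue. For eIF3m the replicate ranks were 4440, 6120 and 7962, and for Ubr3 they were 13817, 4185 and 6298. The protein of eIF3m is known in flies to regulate Dronc, and Ubr3 and morgue encode ubiquitin pathway proteins that act on Diap1. Of 9 genes of Eiger and JNK signalling, the stress pathway that can induce hid and rpr, 5 were bound. They were the kinase gene Tak1 at rank 2207, the adaptor gene Traf6 at 3451, puc, msn and the ligand gene egr. Tak1 ranked 3066, 1914 and 2079 in the replicates, and Traf6 ranked 2992, 4404 and 3761, with its summit nearer to another gene's TSS. Both receptor genes, grnd and wgn, were not bound, nor were hep and bsk. Of these, hep had a promoter summit in the pooled list, with ranks 15121, 7657 and 12055 in the replicates.

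Of 10 genes of DNA fragmentation and corpse clearance, 5 were bound, namely Drep1, ced-6, drpr, crq and EndoG, the last with its summit nearer to another gene's TSS. Drep1, related to the inhibitor of the caspase-activated DNase, had the best rank of the 40 genes, 814, but its summit lay 481 bp from the TSS. In replicates 1 and 2 it ranked 1098 and 861, and replicate 3 had no summit within 500 bp of the TSS. The engulfment adaptor gene ced-6 ranked 3361, with 3079, 3088 and 4174.

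**Figure D5:**
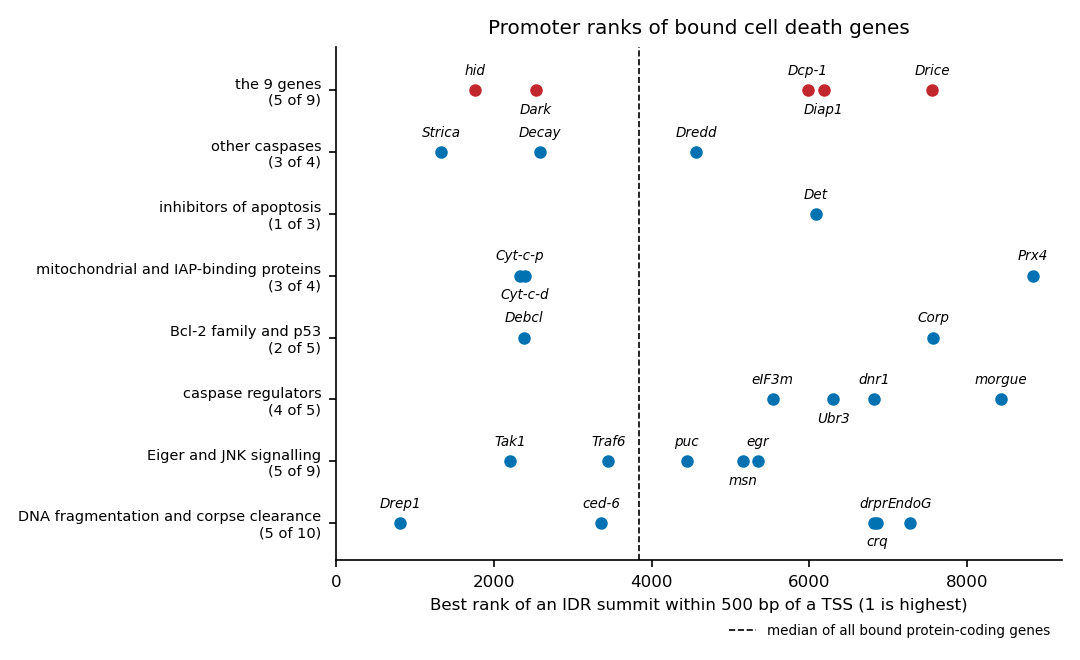
Best rank of an IDR summit within 500 bp of a TSS (horizontal axis, 1 is highest) for the bound cell death genes, by group, with the number bound of the number in the group in brackets. The dashed line is the median of all bound protein-coding genes, 3845, and hid and Dark lie to its left while Dcp-1, Diap1 and Drice lie to its right.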

How the data were processed

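Binding was measured by ChIP-seq in 3 biological replicates of 1 group, numbered as in the labels, and chromatin was sonicated to 200 to 800 bp, per the labels. The authors called peaks in each replicate and in the pooled replicates against a control file and derived the IDR list from these, per the deposited file notes. The sources used here give no aligner, peak caller, version or threshold, and the control library was not analysed here. The deposited score of each peak is the authors' value on a scale that is not stated. The deposited −log10 q value was at 1 ceiling for all IDR peaks and was not used. The files hold no read counts, so depth is unknown and no interval is given.

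Ensembl release 115 genes on dm6 were used, without transposable elements, on X, 2L, 2R, 3L, 3R and 4, with coordinates counted from 1. Distances run to the nearest annotated TSS, and a gene was bound when at least 1 of its TSSs had a summit at most 500 bp away. A replicate peak overlapped by at least 1 bp. Replicate ranks are those of the nearest summit in an overlapping peak of the full list of 30000. Lists were shortened to 9202. Of the 40 other genes, 3 were matched through a synonym. Sequences come from the dm6 reference of RefSeq. No p-value was computed, since peaks and genes are not replicates, and the IDR list is made from the same 3 replicates. The step that assigns summits to promoters was checked on simulated peaks placed at known positions. That check could reveal missed promoter calls but not extra ones, and it used the same TSS annotation. Python 3.11.15, numpy 2.4.6, pandas 2.3.3 and matplotlib 3.10.9 were used.

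The members, gene lists, motifs and alternatives were chosen with earlier results of these data known. Genes outside the 9 are named when their TSS is nearest to an IDR summit in a window, when they belong to the list of 40 and are bound, with values for the 2 best-ranked of a group, or when their promoter ranks are closest to those of hid. The unbound genes of that list that are named, and the 2 summits beyond the hid window, were chosen after their values were seen. Of the 33 IDR summits, 2 near a neighbour of Dark are counted but not reported singly here. Alternatives covered promoter width, window extension, peak list, overlap, peak position and leaving out each replicate.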

Additional observations from a re-analysis of the deposited data

How the results depend on the processing

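Of 62 alternatives to 7 counts, 49 stayed within 1.5 times the reported count and 13 did not. With only the better-ranked part of the IDR list, up to its median, 2 of the 9 genes (hid and Dark) and 11 of the 40 other genes had a promoter summit, against 20% of all protein-coding genes. The windows then held 19 summits, of which 2 were at a promoter of the 9 genes, and the hid to skl stretch held 7. With all pooled peaks the windows held 74 summits, 10 of them at promoters of the 9 genes, and the hid to skl stretch held 65. Without the 10 kb extension, 4 of the 9 genes held a summit (19.1% of all genes), 9 in all, of which 8 were found in all 3 shortened lists. Leaving out 1 replicate gave 10 to 15 summits from hid to skl and 4, 5 and 4 bound genes of 9 without replicates 1, 2 and 3, against 29.1%, 29.6% and 28.1% of all genes. With promoters of 250 bp, 4 of 9 genes and 16 of 40 were bound (29.6% of all genes), and with 1000 bp, 5 and 26 (37.9%). Joining overlapping peaks, an alternative chosen after seeing the data, gave 29 sites. No paired analysis was possible because the samples form 1 group. Sequencing depth is unknown, so the absence of a summit at grim and skl means only that no peak was listed there.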
